A study of Mus musculus with 4 samples.

Results

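The p53 axis is taken here as the transcription factor p53, its relatives, the proteins that hold it in check and genes tied to it. Many of the latter are switched on by p53, and how firmly each is a p53 target was not examined. In the comparison of L929 with NIH3T3 cells, 35 genes of the axis were taken as members by their gene symbol. Of these, 33 had a probe set of their own on the array. Bright enough to be tested were 31 members, out of 12676 genes tested in all. Trp53 and Fdxr, which encodes the mitochondrial ferredoxin reductase, were not analysed here, so no value for p53 itself is given. The members were sorted by role into regulators, cell cycle genes, DNA repair genes, genes of metabolism and autophagy, and cell death genes.

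L929 cells are mouse fibroblasts of connective tissue origin, and NIH3T3 cells are fibroblasts derived from mouse embryos. Both lines were left unstimulated, the labels name no transgene or agent, and each gave 2 samples, measured on 1 Affymetrix GeneChip mouse genome array per sample. The submitters set L929 as cells prone to necrosis against NIH3T3 as cells prone to apoptosis, and 1 line stands for each, so that way of dying and line cannot be told apart. The labels do not say that the 2 samples of a line came from separate cultures, so the p-values reflect no more than how far these samples differ, and that spread may be technical.

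In a cell with intact DNA, p53 is made and quickly destroyed, because the ubiquitin ligase Mdm2 binds it and marks it for the proteasome. DNA damage and other stress free p53 from Mdm2, and it then binds a DNA element built from a repeated palindromic 10-letter consensus and raises genes that halt the cell cycle, repair DNA, adjust metabolism or kill the cell. Mdm2 is itself among these genes, which closes a feedback loop. Fibroblast lines have long been used to study this response, and NIH3T3 cells are known to lack the Arf product of Cdkn2a, which restrains Mdm2.

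Promoter sequence was examined for matches to the p53 consensus. The members were listed for their tie to p53, which can itself rest on such elements, so their share of matches is no independent test. RefSeq promoters (build GRCm38.p6, 250 bases before the start to 50 after it) matched 28 of the 35 members by symbol, and Trp53inp1, Rrm2b, Xpc, Ddb2, Zmat3, Perp and Trp63 were not matched. An exact match to the p53 10-letter consensus, which reads the same on both strands, lay in the promoters of 12 of these 28 genes (42.9%), against 9.55% of the 27025 genes in the promoter table. Per promoter, 36.1% of 36 member promoters held one, against 8.36% of all 32851. A pair of exact matches with a gap of at most 13 bases was found in 1 member, Cdkn1a, and in 20 of all genes. In the Cdkn1a window the 10 bases directly after the match nearer the start miss the consensus at 1 letter, so they are not marked. Exact matching can thus pass over part of an element. Matches occurred beside genes that were higher in L929 (3 of 4 matched genes), lower (3 of 8) and not called (5 of 13). A match here describes letters and is no evidence of binding, and many p53 elements lie outside such windows. The sequences shown are 60 bases around the matches, in capitals, of the 6 called members that had one, since these carry both the motif and a difference between the lines. Gadd45a lies at chr6:67037413-67037472 (minus strand), Pml at chr9:58249896-58249955 (minus), Polk at chr13:96519378-96519437 (minus), Cdkn1a at chr17:29090892-29090951 (plus), Ccng1 at chr11:40755437-40755496 (minus) and Sesn1 at chr10:41887241-41887300 (plus), and each is printed 5′ to 3′ on the strand of its gene.
Gadd45a: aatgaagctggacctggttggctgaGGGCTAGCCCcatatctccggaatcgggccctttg
Pml: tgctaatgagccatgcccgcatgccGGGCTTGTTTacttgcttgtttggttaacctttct
Polk: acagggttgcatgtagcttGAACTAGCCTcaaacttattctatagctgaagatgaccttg
Cdkn1a: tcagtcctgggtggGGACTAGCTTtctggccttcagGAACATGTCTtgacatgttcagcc
Ccng1: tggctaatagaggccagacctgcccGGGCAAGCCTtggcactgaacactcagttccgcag
Sesn1: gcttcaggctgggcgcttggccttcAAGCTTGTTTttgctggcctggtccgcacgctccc

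**Figure D1:**
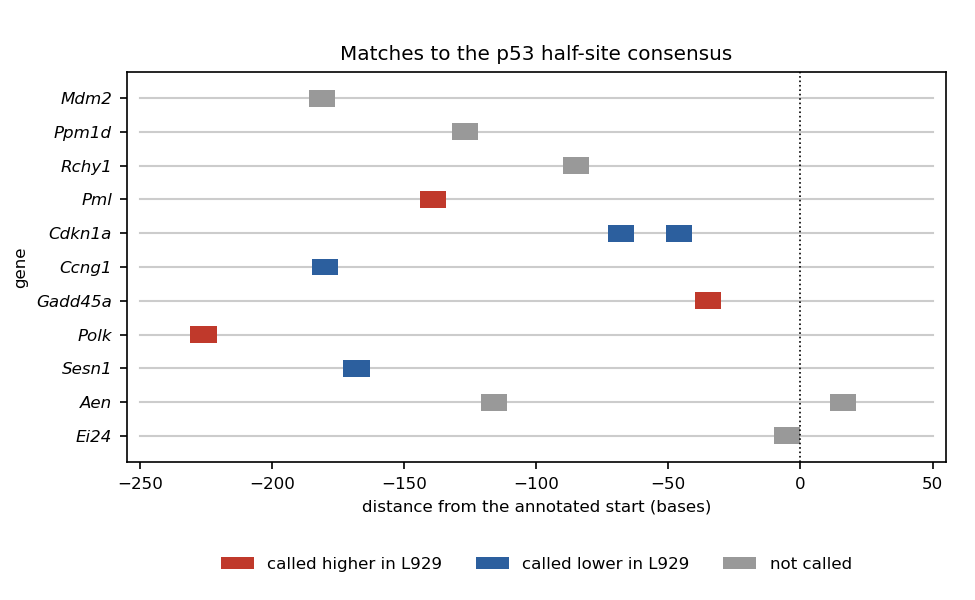
Position of exact matches to the p53 10-letter consensus in the promoters of tested members, in bases from the annotated start (dotted line); each bar is 1 match, and colour gives the call of the gene in L929 against NIH3T3. Aen has 2 annotated starts, and its bars are the same bases seen from each. The 2 bars of Cdkn1a lie within 13 bases of each other, and matches stand beside genes called in both directions.

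Values are MAS5 signals (arbitrary units) after each array was brought to the same trimmed mean, taken from the brightest tested probe set of the gene. Testing required a signal over 17.3, the 40th percentile of all signals, on both arrays of 1 line or of both, and a gene was called if limma's test gave an adjusted p under 0.05 over all genes with a fold above 1.5. Signals of different probe sets are not compared with one another. Each array measured RNA pooled over a culture, so fewer cells with a transcript and less transcript per cell cannot be told apart. Across genes the arrays of 1 line correlated at r = 0.985 in L929 and 0.984 in NIH3T3, against 0.822 to 0.829 between lines, and genes are not independent replicates. NIH3T3 replicate 2 was the brightest array as deposited, with a trimmed mean of 210 against 135 to 142 on the other 3. Of 14 fibroblast markers 13 were tested, of which 5 were lower in L929 and 1, Pdgfrb, higher, against 17.6% and 17.3% of all genes. Vim averaged 11769 and 10036 and Col1a2 7374 and 6116 in L929 and NIH3T3. Thy1, Dcn and Lum averaged 24.03, 10.9 and 18.0 in L929 against 2223, 1477 and 683 in NIH3T3. Fn1 and Pdgfra were also lower in L929, and Fap was below the filter level on all 4 arrays. Markers of epithelial, blood and endothelial cells averaged at most 58.9, 83.1 and 22.4 in L929 and 70.8, 86.8 and 27.4 in NIH3T3. Ptprc, Itgam and Pecam1 were below the filter level on all 4 arrays. Epcam, Krt8, Krt5, Cd68 and Csf1r were above it on all 4, and Cd68 was lower in L929 (31.6 against 65.4).

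The p53 axis was lower in L929 more often than it was higher. Of 31 tested members 11 were lower (35.5%) and 5 higher (16.1%), while 15 were not called. Over all genes 17.6% were lower and 17.3% higher, together 34.8%, against 51.6% of the members. The members and the lists used below were chosen with earlier results of these data known, so these shares are no independent test. The median log2 difference, L929 minus NIH3T3, was -0.28 over the members and 0.01 over all genes, and 19 of 31 members against 49.2% of all genes had a negative difference. On the log2 scale the largest differences downward among called members measured above the filter level in both lines were those of Zmat3, Ccng1 and Cdkn1a, and upward those of Gadd45a and Gadd45g. Without scaling, which moved the median of all genes to -0.26, 6 members were lower and 1 was higher, and over all genes 31.3% of the calls were then higher in L929, against 49.5% with scaling.

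**Figure D2:**
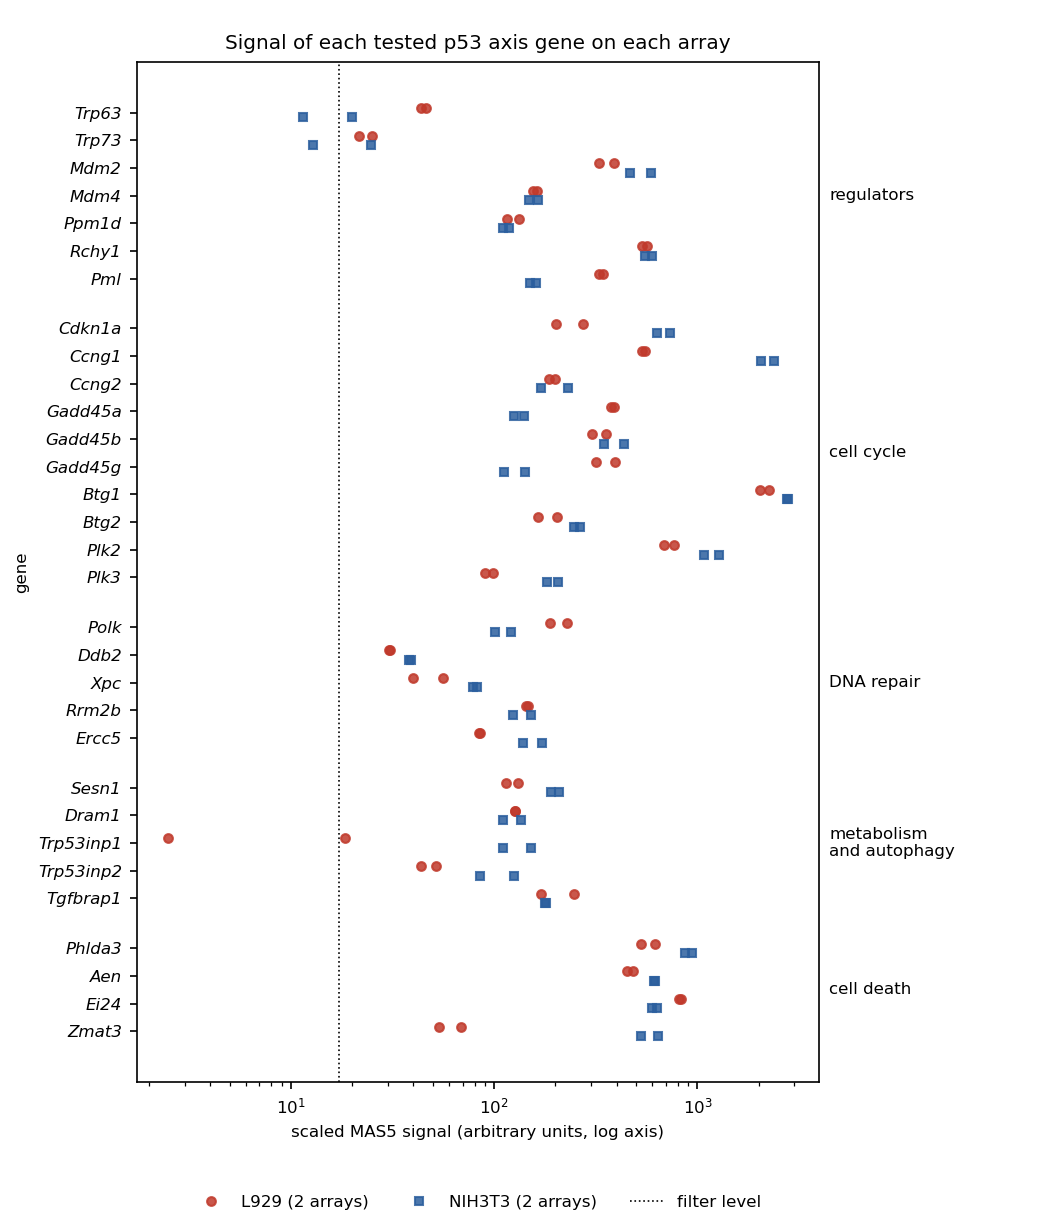
Scaled MAS5 signal (log axis, arbitrary units) of each tested member on each of the 4 arrays, with L929 as circles and NIH3T3 as squares and members grouped by role; the dotted line is the filter level of 17.3. The arrays of a line lie close together for most genes, and the 2 lines stand well apart for Zmat3, Ccng1 and Cdkn1a.

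Of the regulators, 2 of 7 tested were higher in L929 and 0 lower, against 17.3% and 17.6% of all genes. Pml, the scaffold of the nuclear bodies in which p53 is modified, measured 326 and 341 in L929 against 151 and 161 in NIH3T3. Both L929 arrays lay above both NIH3T3 arrays, by 2.09-fold (log2 difference 1.06 ± 0.12 SE, limma adjusted p = 1.7e-04). The other tested Pml probe set also differed upward, at 174 and 183 in L929 against 54.0 and 73.0 in NIH3T3. Trp63, which encodes the p53 relative p63 of stratified epithelia, was dim: it measured 46.1 and 43.4 in L929 against 11.5 and 19.9 in NIH3T3, where a single array exceeded the filter level. The groups did not overlap and Trp63 was called higher (adjusted p = 0.012), with no fold given because NIH3T3 averaged below the filter level, and its 3 other probe sets were too dim to be tested. The Trp63 call was lost without L929 replicate 1 (adjusted p = 0.0502) and without NIH3T3 replicate 1 (adjusted p = 0.0589). Trp73, the third family member, measured 21.6 and 24.98 in L929 against 12.8 and 24.7 in NIH3T3, with overlapping groups.

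None of the 4 tested antagonists of p53, Mdm2, Mdm4, Ppm1d and Rchy1, was called on its brightest probe set, and another probe set passed as lower for Mdm2 and as higher for Mdm4 and Ppm1d. Mdm2 measured 326 and 389 in L929 against 468 and 593 in NIH3T3. The L929 arrays were both below the NIH3T3 arrays, and the difference of -0.55 ± 0.14 SE on the log2 scale (adjusted p = 0.012) was a 1.47-fold change, under the fold threshold. A second Mdm2 probe set, at 279.8 and 293 in L929 against 524 and 437 in NIH3T3, was 1.65-fold lower and passed both thresholds over probe sets (adjusted p = 0.0020), and the first would be called without L929 replicate 2 (-0.68) or without NIH3T3 replicate 1 (-0.72). Mdm4, the relative of Mdm2 that binds and silences p53, measured 163 and 154 in L929 against 164 and 148 in NIH3T3, and the arrays of the lines were interleaved. The log2 differences of its 4 probe sets spanned -0.49 to 1.11, of which the one at 1.11, below the filter level on both NIH3T3 arrays, was called higher (adjusted p = 0.023, at least 2.11-fold), so its direction was not settled. Ppm1d, the phosphatase that switches the damage signal off, measured 133 and 115 in L929 against 119 and 111 in NIH3T3, while its other probe set, at 129.8 and 121 against 76.7 and 60.5, was called 1.75-fold higher (adjusted p = 0.011). Rchy1, a ubiquitin ligase that also acts on p53, measured 564 and 535 in L929 and 555 and 594 in NIH3T3, with overlapping groups.

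Among the 10 tested cell cycle genes, Cdkn1a, Ccng1, Plk2 and Plk3 were lower in L929 and Gadd45a and Gadd45g were higher. That is 40% lower and 20% higher, against 17.6% and 17.3% of all genes. Cdkn1a, which encodes the cyclin-dependent kinase inhibitor p21, measured 202 and 272 in L929 against 634 and 730.2 in NIH3T3. Every L929 array was far below every NIH3T3 array, by 2.84-fold (-1.50 ± 0.15 SE, adjusted p = 8.6e-05), and the second Cdkn1a probe set differed by -1.19. Ccng1, whose product cyclin G1 acts with a phosphatase on Mdm2, measured 535 and 552 in L929 against 2387 and 2063 in NIH3T3. It was 4.04-fold lower (-2.01 ± 0.11 SE, adjusted p = 2.8e-06), with no overlap, and its other 2 probe sets differed by -1.68 and -1.33. The promoter windows printed above hold consensus matches for both genes and for Sesn1, also lower, as well as for Gadd45a, Pml and Polk, which were higher. The Ccng1 paralogue Ccng2 measured 186 and 198 in L929 within the 169 and 231 of NIH3T3, and its difference of -0.04 was not called.

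The Gadd45 genes encode small acidic stress proteins that activate a MAP kinase kinase kinase and bind PCNA, and the 3 family members did not move together. Gadd45a, the one best known as a p53 target, measured 387 and 377 in L929 against 139 and 126 in NIH3T3. The lines were well separated, and Gadd45a was 2.78-fold higher in L929 (1.47 ± 0.12 SE, adjusted p = 3.1e-05). Gadd45g measured 315 and 391 in L929 against 141 and 111 in NIH3T3, again without overlap, and was 2.69-fold higher (1.43 ± 0.16 SE, adjusted p = 1.9e-04). Gadd45b, which is commonly induced through NF-kB and TGF-beta, measured 301 and 356 in L929 and 348 and 433 in NIH3T3, and the groups overlapped. Gadd45a differed upward, whereas Cdkn1a, Ccng1 and Zmat3 differed downward. Each is known to be induced by p53 after DNA damage, and p53 activity was not tested here.

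The remaining cell cycle genes were lower in L929 or did not pass. Plk3, a stress-responsive polo-like kinase, measured 90.0 and 98.8 in L929 against 206 and 183 in NIH3T3, and was 1.97-fold lower (-0.98 ± 0.16 SE, adjusted p = 0.0012). Plk2, a related kinase of centriole duplication, measured 687 and 764 in L929 against 1272 and 1081 in NIH3T3. Neither gene's groups overlapped, and Plk2 was 1.61-fold lower (-0.69 ± 0.11 SE, adjusted p = 0.0015), a call lost without NIH3T3 replicate 1, where the difference was -0.57. Btg1 and Btg2, antiproliferative partners of the deadenylase complex, differed by -0.38 and -0.46, both with an adjusted p under 0.05 (0.030 and 0.028) but under the fold threshold. Btg2 measured 164 and 204 in L929 against 265 and 246 in NIH3T3 and would be called without L929 replicate 2 (-0.62). Of the 3 Btg1 probe sets 1 had the opposite sign, at 0.38. Sfn, the 14-3-3 sigma protein of epithelia, was below the filter level on all 4 arrays, at 1.64 and 4.87 in L929 and 1.54 and 1.37 in NIH3T3.

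**Figure D3:**
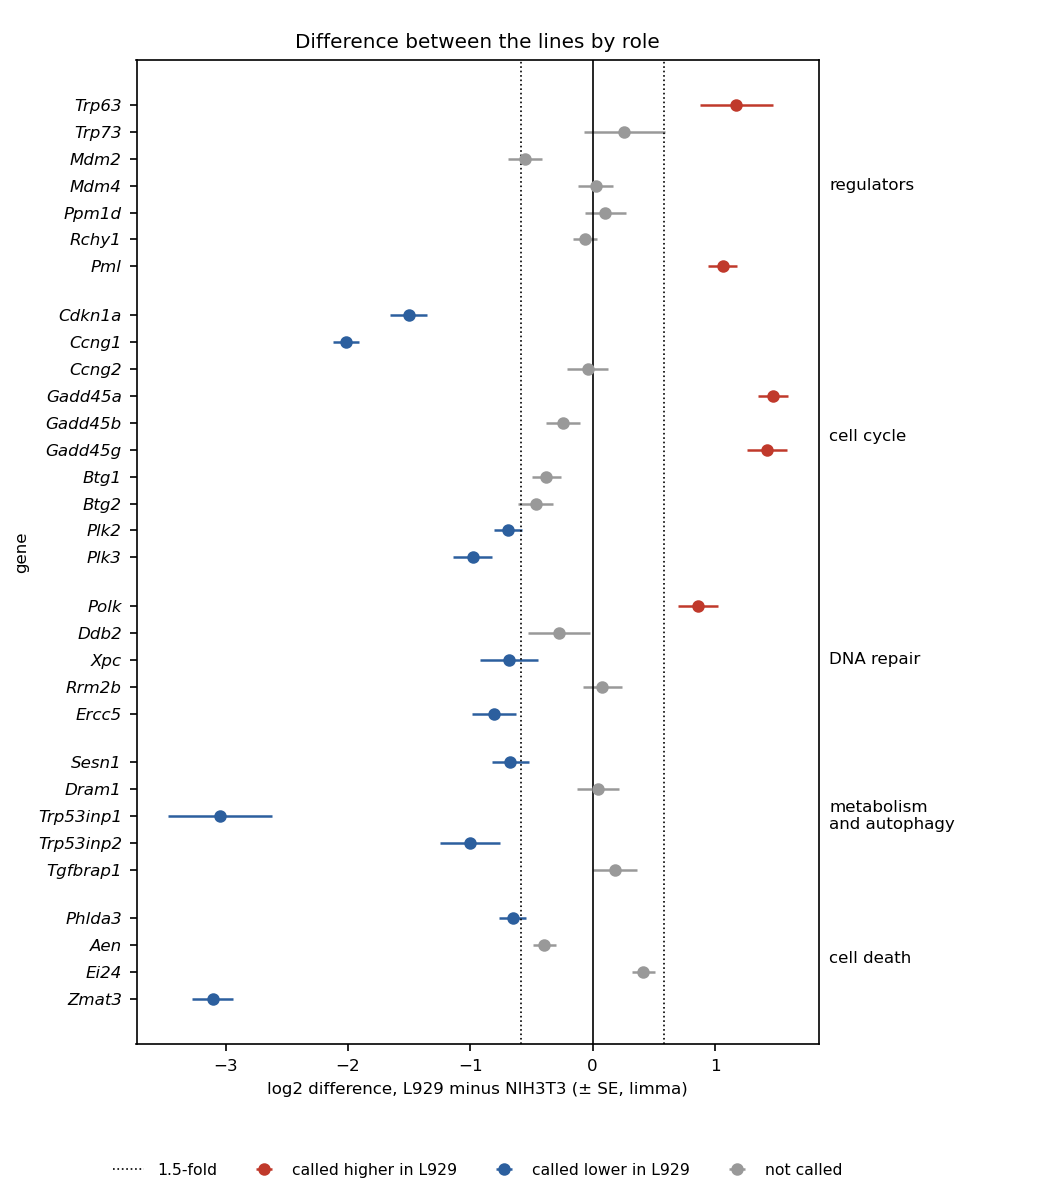
Difference between L929 and NIH3T3 (log2, L929 minus NIH3T3, points with limma's SE) for the 31 tested members by role; dotted lines mark a 1.5-fold difference, and colour gives the call. Among cell cycle genes Gadd45a and Gadd45g stand to the right at 1.47 and 1.43 and Ccng1 and Cdkn1a to the left at -2.01 and -1.50.

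DNA repair genes also differed in both directions, with 1 of 5 higher and 2 lower, against 17.3% and 17.6% of all genes. Polk, the translesion polymerase kappa that copies past bulky lesions, measured 188 and 228 in L929 against 101 and 120.3 in NIH3T3. It was 1.82-fold higher (0.86 ± 0.17 SE, adjusted p = 0.0032) without overlap, and its second probe set differed by 0.50 and did not pass. Ercc5, the endonuclease XPG of nucleotide excision repair, measured 84.5 and 85.2 in L929 against 171 and 139 in NIH3T3, and was 1.75-fold lower (-0.81 ± 0.18 SE, adjusted p = 0.0061). The Ercc5 groups were separate, and those of Xpc, a sensor of helix distortion in the same pathway, were too. Xpc measured 39.8 and 55.8 in L929 against 82.4 and 78.8 in NIH3T3 (-0.68 ± 0.24 SE, adjusted p = 0.045). The Xpc call was lost in 9 of 15 alternative settings, among them when L929 replicate 1 (-0.47), NIH3T3 replicate 1 (-0.65) or the second NIH3T3 array (-0.71) was left out. Ddb2, the other damage sensor, was dim at 30.3 and 30.8 in L929 and 38.1 and 39.2 in NIH3T3 and was not called (-0.28). Rrm2b, the p53-induced subunit of ribonucleotide reductase, measured 144 and 146 in L929 within the 124 and 151 of NIH3T3, a difference of 0.08.

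Of the 5 tested genes of metabolism and autophagy 3 were lower in L929 and 0 higher. Over all genes 17.6% were lower and 17.3% higher. Trp53inp1, a p53-induced stress protein that takes part in autophagy and antioxidant defence, measured 18.5 and 2.47 in L929 against 110.1 and 152 in NIH3T3. It was called lower (adjusted p = 5.9e-04), but 1 of 2 L929 arrays was below the filter level and so was their mean, so no size is given for this probe set. A second Trp53inp1 probe set was below that level on both L929 arrays, at 4.04 and 4.13, against 31.2 and 18.0 in NIH3T3, at least 1.37-fold lower. Its paralogue Trp53inp2, an autophagy factor, measured 51.6 and 43.9 in L929 against 85.04 and 125 in NIH3T3, and was 2.00-fold lower (-1.002 ± 0.25 SE, adjusted p = 0.010). The groups did not overlap, but Trp53inp2 did not pass once NIH3T3 replicate 2 was left out (-0.74, adjusted p = 0.0625). Sesn1, a sestrin that restrains mTORC1, measured 115 and 131 in L929 against 191 and 209 in NIH3T3, and was 1.59-fold lower (-0.67 ± 0.15 SE, adjusted p = 0.0064). Its other 2 tested probe sets differed by -1.35 and -1.21, and the call was lost without L929 replicate 1 (-0.58). Dram1, a lysosomal membrane protein of autophagy, measured 126.5 and 126.2 in L929 within the 135 and 111 of NIH3T3. Tgfbrap1, an endosomal tethering protein that binds TGF-beta receptors, measured 169.9 and 246 in L929 and 180.2 and 178 in NIH3T3, with overlapping groups.

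Cell death genes were lower for 2 of 4 tested members and higher for 0, against 17.6% and 17.3% of all genes. Zmat3, a zinc-finger protein that binds RNA and is induced by p53, measured 53.2 and 68.5 in L929 against 526 and 642 in NIH3T3. The lines were far apart and Zmat3 was 8.61-fold lower (-3.11 ± 0.16 SE, adjusted p = 2.7e-06). Phlda3, a p53-induced protein that keeps the survival kinase Akt from the membrane, measured 528 and 618 in L929 against 864 and 943 in NIH3T3. Both L929 arrays were lower, by 1.57-fold (-0.65 ± 0.11 SE, adjusted p = 0.0016), a call lost without L929 replicate 1 (-0.54). Aen, an apoptosis-enhancing nuclease, measured 449 and 481 in L929 against 615 and 612 in NIH3T3, but its 1.31-fold difference was under the fold threshold and its 4 probe sets ranged from -0.45 to 0.70. Ei24, a membrane protein of the endoplasmic reticulum, measured 833 and 809 in L929 against 630.2 and 598 in NIH3T3, 1.33-fold apart in the other direction and also under the fold threshold. Perp, a membrane protein of desmosomes, was below the filter level on all 4 arrays, at 7.09 and 6.99 in L929 and 1.49 and 8.89 in NIH3T3.

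Several members are read by more than 1 probe set, and these gave 1 direction for some genes and both for others. The 33 members with a probe set had 71 in all, of which 58 were tested, 18 called lower and 9 higher, against 31.6% called among all 27438 probe sets tested. Of 17 members with several tested probe sets 4 had probe sets of opposite sign, namely Mdm4, Btg1, Rrm2b and Aen, and 0 had calls in both directions. Cdkn1a, Ccng1, Sesn1, Trp53inp1 and Pml had every tested probe set called in 1 direction. The calls of Trp63, Gadd45a, Gadd45g, Plk2, Plk3, Xpc, Ercc5, Trp53inp2, Phlda3 and Zmat3 rest on 1 tested probe set each.

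**Figure D4:**
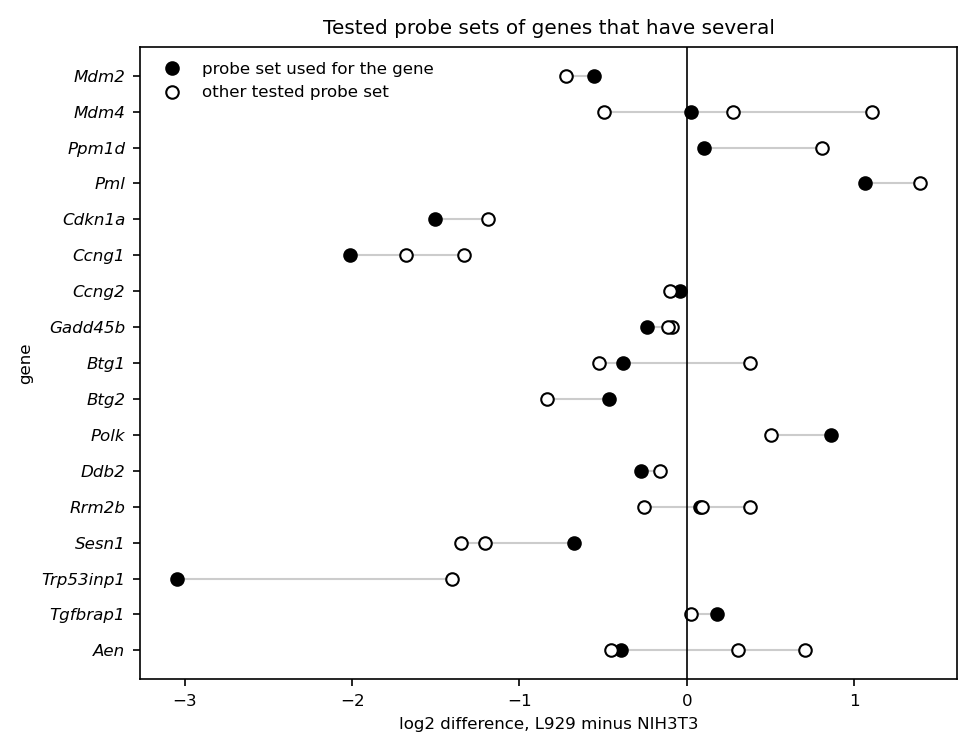
Difference between L929 and NIH3T3 (log2, L929 minus NIH3T3) for each tested probe set of the 17 members that have several; the filled point is the brightest, which stands for the gene, and open points are the others. The points of Mdm4, from -0.49 to 1.11, and Aen, from -0.45 to 0.70, lie on both sides of 0, and the 3 of Ccng1 all lie at -1.33 or lower.

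A further 74 genes of the p53 pathway were listed. Of 62 tested, 12 were higher in L929 (19.4%) and 17 lower (27.4%), with a median log2 difference of 0.09, against the 17.3% and 17.6% of all genes. Without scaling 6 were higher. Of 19 tested kinases, cofactors and modifiers that act on p53, 1 was higher (5.3%) and 4 were lower (21.1%, near the share of all genes). Sirt1, a deacetylase that acts on p53, measured 249 and 196 in L929 against 62.5 and 61.2 in NIH3T3, 3.28-fold higher and without overlap (adjusted p = 1.2e-04). Cdkn2a was below the filter level on all 4 arrays, at 4.26 and 1.79 in L929 and 9.06 and 6.98 in NIH3T3. It was therefore not tested, and no difference in Cdkn2a between the lines can be read from these arrays.

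Of 43 other tested p53 target genes 11 were higher (25.6%) and 13 lower (30.2%), against 17.3% and 17.6% of all genes. This list was not divided by whether p53 raises or lowers a gene. Bbc3, which encodes the BH3-only protein PUMA, measured 181 and 186 in L929 against 64.6 and 85.1 in NIH3T3, 2.33-fold higher (1.22 ± 0.18 SE, adjusted p = 8.7e-04). Bid, another BH3-only gene, differed by 2.76, with its 3 probe sets between 1.50 and 2.85. Pmaip1, which encodes NOXA, was below the filter level on all 4 arrays, and Bax was not analysed here. Others among the 8 largest differences upward were Cd82, a tetraspanin (3.06, with its second probe set at 0.08), Trp53i11 (2.41, with a single NIH3T3 array above the filter level), the antioxidant enzyme Gpx1 (1.47), the peptide transporter Tap1 (1.30), cyclin D1, Ccnd1 (1.30), and the AMP kinase subunit Prkab1 (1.24, with its second probe set at 0.22).

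Eda2r, a receptor of the TNF receptor family, was below the filter level on both L929 arrays, at 7.72 and 5.47, against 41.0 and 43.3 in NIH3T3, a drop of at least 2.44-fold (adjusted p = 0.0014). Fas, the death receptor, measured 3.49 and 3.42 in L929 against 19.5 and 34.8 in NIH3T3, a drop of at least 1.51-fold (adjusted p = 0.0063). The largest difference downward was that of Thbs1, the secreted angiogenesis inhibitor thrombospondin 1, at 17.5 and 21.6 in L929 against 1081 and 1176 in NIH3T3, 41.4-fold lower (adjusted p = 9.0e-08). Both Thbs1 values in L929 lay just above the filter level, and the second probe set gave a smaller log2 difference of -3.99. Sesn3, a sestrin like Sesn1, measured 44.5 and 50.4 in L929 against 197 and 229.8 in NIH3T3, 3.99-fold lower (adjusted p = 5.6e-05), whereas the third sestrin, Sesn2, was 1.90-fold higher at 292 and 356 against 169 and 164. The others of the 8 largest were the enzymes Dcxr (-2.31) and Ak1 (-1.44), the stress factor Atf3 (below the filter level on both L929 arrays, at least 1.54-fold lower) and the repair enzyme Mgmt (-1.43, with a single L929 array above the filter level). Their order by fitted difference includes genes below that level in 1 line, whose place is not a measured rank.

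**Figure D5:**
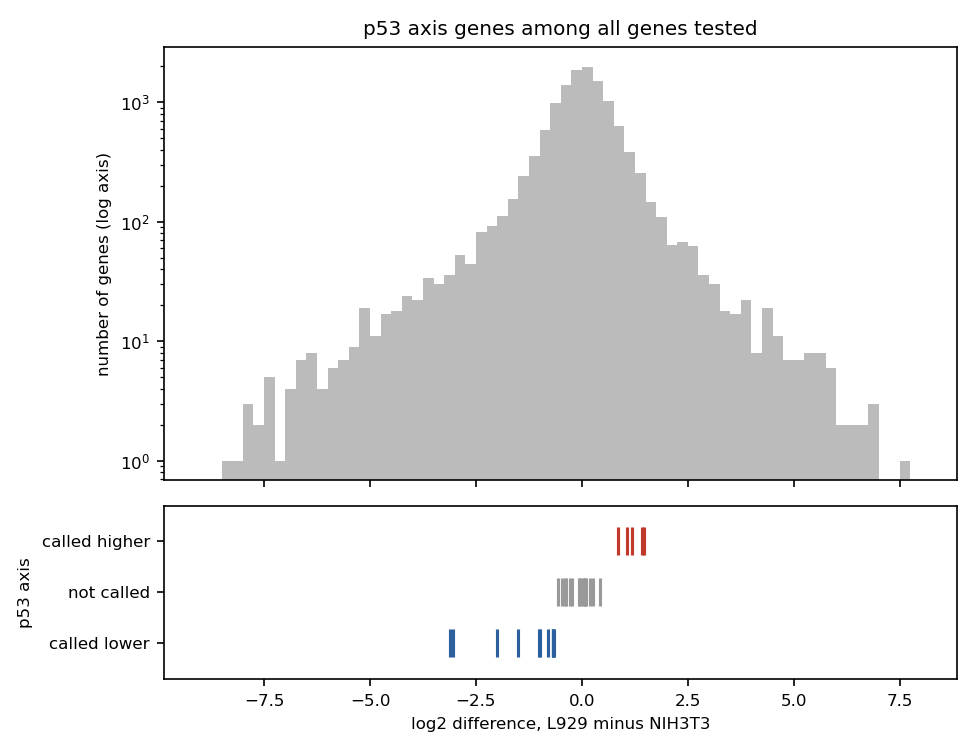
Histogram of the log2 difference, L929 minus NIH3T3, of all 12676 genes tested (upper panel, log axis of gene number), with each of the 31 tested members as a tick below, in rows by call. The members run from -3.11 to 1.47, within the range of all genes, and 11 ticks stand in the lower row against 5 in the upper one.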

How the data were processed

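Total RNA of 2 L929 and 2 NIH3T3 samples was measured on Affymetrix mouse genome arrays. The deposited intensities are MAS5 signals, per the submitters' processing notes. No MAS5 version, scaling target or build is given in the sources used here. Genes were named from probe sets with 1 symbol in the platform annotation (34945 of 45037 that are not controls; 932 have several and 9160 none). Arrays were scaled to a common 2% trimmed mean, multiplying L929 by 1.07 and 1.14, NIH3T3 by 1.13 and 0.726, and an offset of 8.01 was added before log2, which understates folds of dim genes. All 4 arrays were fitted with limma 3.58.1 (R 4.3.3; lmFit, then eBayes with trend) over all genes tested with Benjamini-Hochberg adjustment. The procedure was tested on simulated data. If both arrays of a line were under 17.3, the fold is a bound against that level, a percentile and not a detection limit. No fold is given where 1 of 2 arrays lay above it and the mean below. Alternatives changed the scaling, offset, filter, probe set rule, variance trend and replicate block, or left out each array. Consensus matches were exact and unweighted.

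All tested members are described, with Cdkn2a, Bbc3, Bax and Pmaip1 and the 8 called other pathway genes that differed most, per direction; Sesn2 was named after its values were seen, beside the other sestrins. Members and lists were chosen with earlier results of these data known. The number of arrays limits the precision.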

Additional observations from a re-analysis of the deposited data

How the results depend on the processing

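The members' differences and the counts of calls over genes were recomputed in 15 alternative settings, of which the stricter filter did not test Trp63, Trp73 and Ddb2. Promoter matches, probe-set calls and single other pathway genes were not recomputed. Calls of 6 of the 16 called members held in every setting, namely Cdkn1a, Ccng1, Gadd45a, Plk3, Trp53inp1 and Zmat3. Those of Pml, Gadd45g and Ercc5 were lost only without scaling. The calls of Trp63, Plk2, Polk, Xpc, Sesn1 and Phlda3 were lost without scaling and in at least 1 other setting. Without scaling, 794 of all genes, 1 member and 6 other pathway genes were higher in L929, and 6 members were lower; 31.3% of all calls were then higher, against 49.5%. The cause was not tested. With 1 array left out, 4 to 5 members were higher and 8 to 13 lower. Polk was not called with the median probe set (0.50), where Mdm2, Ppm1d and Btg2 were. Among uncalled members 9 changed sign somewhere. Without scaling these were Mdm4 (-0.25), Ppm1d (-0.17), Rrm2b (-0.19), Dram1 (-0.23) and Tgfbrap1 (-0.095); with the median probe set Aen (0.30); with median scaling or quantile normalization Ccng2 (0.020 and 0.021). With 1 array left out, values ranged from -0.066 to 0.59 for Trp73, -0.048 to 0.098 for Mdm4 and -0.26 to 0.18 for Ccng2. For Rrm2b, Dram1 and Tgfbrap1 they ranged from -0.056 to 0.22, -0.093 to 0.18 and -0.073 to 0.44. Those of Ddb2 ran from -0.30 to 0.16. Both of these ends came from its other probe set, the brighter one when replicate 2 of either line was left out. The replicate differences of the 2 lines were nearly uncorrelated across genes (r = 0.011). This cannot show whether samples with the same replicate number were handled together, and the labels do not say. With the replicate block 5 members were higher and 10 lower, and Xpc was the call lost.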
